A study of Mus musculus with 2 samples.

Results

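The simple epithelial keratins measured here are 4 genes, Krt7, Krt8, Krt18 and Krt19. They were taken by symbol from the gene table of 2 single-cell RNA libraries, and all 4 were found among the 27998 genes counted. Both libraries came from mouse lung organoids, which are small 3-dimensional structures grown from sorted, lineage-labelled alveolar type 2 (AT2) cells of C57BL/6 mice together with cultured lung stromal cells. The mice carried a tamoxifen-inducible Cre driven by the surfactant protein C (SPC) promoter and a tdTomato reporter, so that AT2 cells and their progeny were marked, and the methods gave ages of 6 to 10 weeks for mice of the study. The control organoids received PBS, and the other organoids received interleukin-1β (IL-1β), an inflammatory cytokine, at 20 ng/ml by the culture methods and at 10 ng/ml by a figure legend. The culture time was given as 2 weeks in the series text and as day 21 in the same legend. Each condition was 1 library, so a difference between the libraries had no replicate check. All intervals given are 95%. They cover only the counting error of transcripts or, for shares of cells, the sampling of cells within 1 library.

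Keratins form the intermediate filaments of epithelial cells. A filament is built from pairs of a type II and a type I keratin, and in simple epithelia the main pair is Krt8 (type II) with Krt18 (type I), while Krt7 (type II) and Krt19 (type I) are further members. The filaments are tied to desmosomes, give the cell its resistance to stretch, and are remodelled when alveolar cells spread. Krt8 is widely used as a marker of the transitional state between AT2 cells, which make surfactant, and the flat alveolar type 1 (AT1) cells, which carry out gas exchange.

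Krt7, Krt8 and Krt18 lie on mouse chromosome 15 and Krt19 on chromosome 11 (GRCm38, GENCODE M21). Krt7 (ENSMUSG00000023039) spans chr15:101411043-101430313 on the plus strand. Krt8 (ENSMUSG00000049382) spans chr15:101996698-102004482 on the minus strand and Krt18 (ENSMUSG00000023043) spans chr15:102028180-102032027 on the plus strand, so the pair is divergent with 23698 bases between their starts. Krt19 (ENSMUSG00000020911) spans chr11:100140810-100148665 on the minus strand. A processed pseudogene of Krt8, Krt8-ps, is annotated at chr7:23357125-23358069 and had no row of its own in the count table, so reads that fit both copies could not be followed.

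The promoters of 3 of the 4 members were found in the RefSeq table (GRCm38.p6). They are shown because Krt8 and Krt18 had nearly the same profile over the clusters while Krt7 did not. Whether the promoter sequences bear on these profiles was not tested. Each promoter window runs from 150 bases before to 20 bases after the RefSeq start, with capitals on the motifs named below.
Krt7 (chr15:101412253-101412422, plus strand): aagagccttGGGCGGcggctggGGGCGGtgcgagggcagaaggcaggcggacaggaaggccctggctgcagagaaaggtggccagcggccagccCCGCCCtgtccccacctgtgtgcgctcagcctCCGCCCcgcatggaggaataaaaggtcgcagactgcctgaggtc
Krt8 (chr15:102004323-102004492, minus strand): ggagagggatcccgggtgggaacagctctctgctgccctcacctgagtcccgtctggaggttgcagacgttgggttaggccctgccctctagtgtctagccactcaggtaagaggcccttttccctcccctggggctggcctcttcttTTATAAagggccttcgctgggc
Krt18 (chr15:102028066-102028235, plus strand): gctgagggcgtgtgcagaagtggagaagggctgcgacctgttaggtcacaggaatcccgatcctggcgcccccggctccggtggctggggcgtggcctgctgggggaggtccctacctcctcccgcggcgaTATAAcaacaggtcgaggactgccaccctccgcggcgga
The letters TATAA were in the Krt8 window, on both strands at overlapping positions that begin 2 and 1 bases before the RefSeq start. In the Krt18 window they begin 19 bases before it. These letters were on either strand in 15.2% of the 32851 RefSeq windows of the same length. The GC box GGGCGG, on either strand, occurred 4 times in the Krt7 window and in 30.3% of all windows. None of the 3 windows held TGANTCA (AP-1, in 4.74% of all windows), CCAAT (in 26.3%), AACC joined to GGTT (Grhl factors, in 0.0761%) or the NF-kB motif (in 2.61%). GENCODE M21 places the gene starts of all 3 farther upstream than RefSeq does, so parts of the Krt8 and Krt18 windows are first exon in that annotation and the whole Krt7 window lies within its gene.

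The libraries held 2101 control barcodes with 33965848 unique molecular identifiers (UMIs) and 3066 IL-1β barcodes with 41220175 UMIs, with medians of 14613 and 11496.5 UMIs per barcode, and 11 barcode sequences occurred in both. A UMI marks 1 captured transcript end, so levels are given as counts per 1000000 UMIs of the summed cells (CPM) without scaling by gene length. Cells were clustered in each library without any keratin gene and were named from fixed marker lists. Epithelial cells numbered 1284 in the control library, with 674 AT2, 74 transitional, 222 AT1 and 87 cycling cells, and 2580 in the IL-1β library, with 908 AT2, 106 transitional, 395 AT1 and 55 airway cells. Clusters whose leading genes held more markers of another class than of their own, and 1 of 41 IL-1β cells with no marker of its best class among them, stayed unnamed, in all 227 control and 1116 IL-1β cells. For the IL-1β clusters of 468 and 326 cells and the control cluster of 143, 1 such marker decided this. It was Cd14 or Lyz1, listed here as immune markers, although AT2 was the best-scoring class of each of these clusters. The stromal classes held 793 and 478 cells.

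Sftpc, Ager and Cldn4 were among the markers used for naming, so their levels describe the classes and do not test the names. Sftpc, the surfactant protein C gene, stood at 100109 CPM in control AT2 cells and at 78057 in IL-1β AT2 cells, and Ager, an AT1 marker, at 13309 in control and 7063 in IL-1β AT1 cells. Cldn4, a claudin used as a transitional marker, stood at 1.36 CPM in control AT2, 95.5 in control transitional, 19.7 in IL-1β AT2 and 477 in IL-1β transitional cells. The control transitional class kept Sftpc at 82927, near the AT2 level, whereas the IL-1β transitional class had 25914. In 50 of the 74 control transitional cells, Sftpc stood at 104372, so most of that class was near AT2 cells in Sftpc. Their Cldn4 (10.5) and Sprr1a (16.4) were above the control AT2 levels of 1.36 and 2.51. These 50 cells are those left after a cluster picked on keratin level, described below, was set aside. Of 5 mesothelial markers, which would accompany another keratin-rich cell type of the lung, Upk3b and Wt1 had no UMI in either transitional class, and the only one detected was Msln, with 0.838 CPM (control class) and 114 CPM (IL-1β class). Its part in the keratin levels was not tested.

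All 4 keratins were higher in transitional and in AT1 cells than in AT2 cells of the same library. The sum of the 4 was 627 CPM in control AT2 cells (interval 611 to 643), 1925 in control transitional cells (1847 to 2005) and 2516 in control AT1 cells (2461 to 2571). In the IL-1β library the same sums were 842 (825 to 859), 4012 (3898 to 4129) and 2548 (2505 to 2591). Thus the highest sum belonged to AT1 cells in the control library and to transitional cells in the IL-1β library, and none of these intervals overlapped within a library. The control order was not stable, with a log2 ratio of AT1 over transitional cells of 0.39 here and from -1.25 to 0.78 over 11 alternatives, and that of the IL-1β library reached -0.01.

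**Figure D1:**
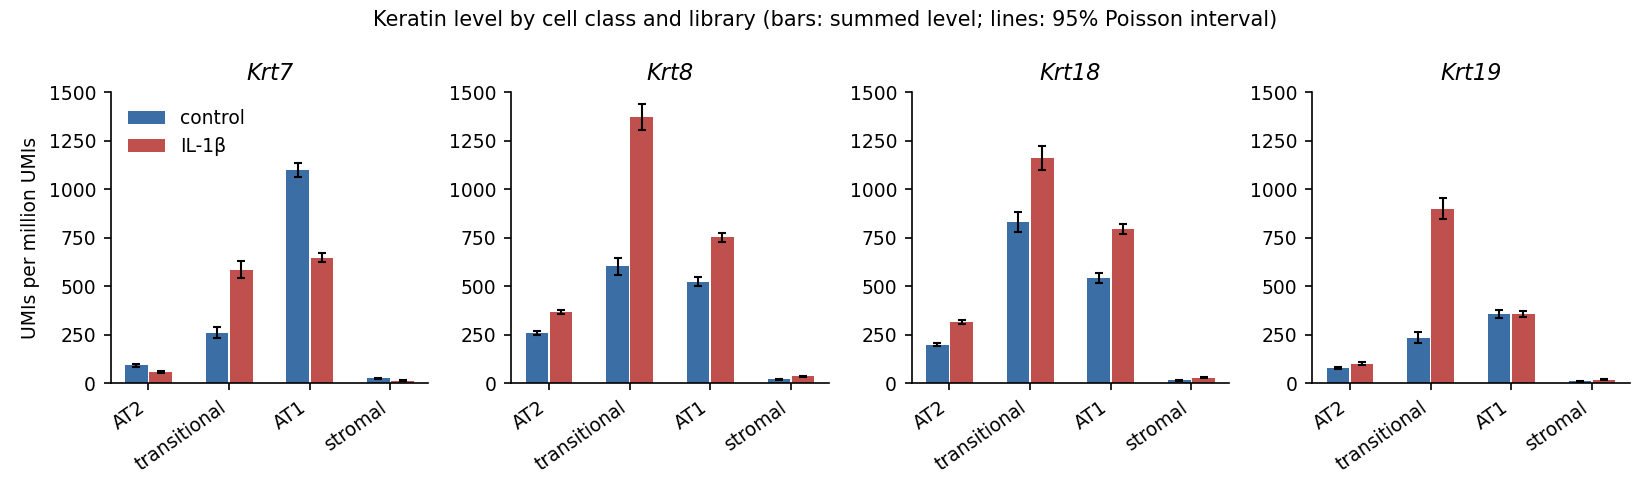
Level of each keratin, in CPM, in AT2, transitional, AT1 and stromal cells of the control (blue) and IL-1β (red) libraries; bars are the summed level of the class and lines the 95% Poisson interval. Krt8 and Krt19 peak in IL-1β transitional cells at 1371 and 898, whereas Krt7 peaks in control AT1 cells at 1096.

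Krt8, the type II partner of the main pair, stood at 257 CPM in control AT2 cells, 602 in control transitional cells and 524 in control AT1 cells. In the IL-1β library it stood at 367, 1371 and 751. Transitional cells therefore exceeded AT2 cells 2.34-fold in the control library (interval 2.15 to 2.55) and 3.74-fold in the IL-1β library (3.53 to 3.96). Over the alternatives the log2 ratios ran from 0.92 to 2.59 in control and from 1.18 to 2.06 with IL-1β. Their difference in size between libraries was thus not stable. AT1 cells exceeded AT2 cells by about the same ratio in both libraries, 2.04-fold (1.91 to 2.17) and 2.05-fold (1.96 to 2.14).

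Krt18, its type I partner, stood at 199.5 CPM in control AT2, 829 in control transitional and 541 in control AT1 cells, and at 316, 1159 and 794 in the IL-1β library. The ratio of transitional to AT2 cells was 4.16 (3.84 to 4.49) in the control library and 3.66 (3.44 to 3.90) in the IL-1β library. The ratio of AT1 to AT2 cells was 2.71 (2.54 to 2.90) and 2.51 (2.399 to 2.624). Krt18 was the most abundant of the 4 in control transitional cells, where it ranked 163 by UMIs among 12752 genes with a UMI. That order was not stable: with every barcode kept, Krt8 stood at 536.8 and Krt18 at 507.7 CPM in these cells.

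Krt7 followed another order. It stood at 92.4 CPM in control AT2, 259.8 in control transitional and 1096 in control AT1 cells, an 11.9-fold difference between AT1 and AT2 cells (11.01 to 12.78). With IL-1β it stood at 56.9, 584 and 647, and AT1 exceeded AT2 cells 11.4-fold (10.5 to 12.4). Transitional cells exceeded AT2 cells 2.81-fold in the control library (2.462 to 3.202) and 10.3-fold in the IL-1β library (9.21 to 11.5). On the log2 scale these ratios ran from 1.18 to 3.17 and from 2.31 to 3.41 over the alternatives, so their difference in size between libraries was not stable. Control AT1 cells were 4.22-fold above control transitional cells (3.75 to 4.75), while in the IL-1β library the same ratio was 1.11 (1.02 to 1.21).

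Krt19, the type I keratin that lacks most of the tail domain of other keratins, stood at 77.9 CPM in control AT2, 235 in control transitional and 355 in control AT1 cells. With IL-1β it stood at 101.9, 898 and 356. Transitional cells exceeded AT2 cells 3.01-fold (2.62 to 3.46) in the control library and 8.81-fold (8.10 to 9.59) in the IL-1β library. The order of AT1 and transitional cells was opposite in the libraries: AT1 over transitional was 1.51 (1.33 to 1.73) in control and 0.396 (0.367 to 0.428) with IL-1β. The control order reversed in 2 of 11 alternatives, to log2 ratios of -0.64 with joint clustering and -0.01 with every barcode kept. The IL-1β ratio over AT2 cells went down to 2.02 on the log2 scale with joint clustering, from 3.14. The control ratio ran from 1.32 to 2.58 over the alternatives, so the larger ratio with IL-1β was not stable.

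All 4 keratins were thus at least 2-fold higher in transitional than in AT2 cells of each library, where 4.03% of 7475 compared genes in the control library and 8.62% of 8128 in the IL-1β library were, and 1.38% and 4.91% were at least 2-fold lower. All 4 were also at least 2-fold higher in AT1 than in AT2 cells, against 18.3% of 8254 genes in the control library and 14% of 9046 in the IL-1β library, with 5.97% and 4.7% at least 2-fold lower. Krt8 lay close to that threshold in the AT1 comparison and fell under it in the control library with 4 alternatives, with log2 ratios from 0.73 to 0.97, and in most IL-1β alternatives, down to 0.62. Between AT1 and transitional cells, 1 keratin (Krt7) was at least 2-fold higher in control AT1 cells, against 13.1% of 5568 genes (3.72% lower), and 1 (Krt19) was at least 2-fold lower in IL-1β AT1 cells, against 3.38% of 6923 genes (7.32% higher). Compared genes had at least 100 UMIs over both classes, and with 1 library per condition these counts are of fold size with no test. The comparisons of 1 library share the same AT2, transitional or AT1 cells and are not independent of each other. The study listed Krt8 as a transitional marker together with Cldn4, Ndrg1 and Sprr1a, which were used here for naming. The keratin counts in transitional cells, that of Krt8 above all, are therefore not independent of the naming and are a description.

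The mix of keratin UMIs changed with the class. Krt8 and Krt18 together held most keratin UMIs of AT2 cells, with 41% and 31.8% in the control library and 43.6% and 37.6% in the IL-1β library. In control AT1 cells Krt7 held 43.6% of keratin UMIs (42.5 to 44.7) and the Krt7 to Krt8 ratio was 2.09 (1.97 to 2.22), against 0.36 (0.333 to 0.388) in control AT2 cells. In IL-1β AT1 cells Krt7 held 25.4% (24.7 to 26.2) and the ratio was 0.862 (0.823 to 0.903), against 0.155 (0.143 to 0.169) in IL-1β AT2 cells. Krt19 held 12.2% of keratin UMIs in control transitional cells and 22.4% in IL-1β transitional cells. The Krt8 to Krt18 ratio ran from 0.726 in control transitional cells to 1.29 in control AT2 cells among the 6 epithelial classes.

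The transitional classes were uneven inside. When all cells of a library were clustered together, still without keratin genes, 1 control cluster of 26 cells had the highest keratin share, and 24 of its cells belonged to the transitional class. This cluster was picked for its keratin level after the values were seen, so its levels are a description. It had Krt8 at 1278, Krt18 at 2040, Krt7 at 498.6 and Krt19 at 536 CPM, Sftpc at 31617, and Sprr1a, Lgals3, Clu and Cldn4 among its leading genes. Of the mesothelial genes Upk3b and Wt1 had no UMI in it and Msln had 1 UMI. The other 50 control transitional cells had Sftpc at 104372 and Cldn4 at 10.5, and their keratins exceeded control AT2 cells by 1.27-fold (Krt8, interval 1.12 to 1.44) to 1.73-fold (Krt7, 1.44 to 2.08). Since the cluster was picked on keratin level, the lower ratios of the remaining cells follow from that choice and are a description. The matching IL-1β cluster had 103 cells, 95 of them transitional, with Krt8 at 1661, Krt18 at 1492, Krt7 at 690 and Krt19 at 993, and F3 and Sprr1a among its leading genes. The other 11 IL-1β transitional cells had Krt8 at 382, Krt18 at 401, Krt7 at 49.0 and Krt19 at 264, from 39, 41, 5 and 27 UMIs. Against IL-1β AT2 cells the ratios were 1.04 (Krt8, 0.739 to 1.43), 1.27 (Krt18, 0.909 to 1.72), 0.860 (Krt7, 0.278 to 2.02) and 2.59 (Krt19, 1.70 to 3.79).

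**Figure D2:**
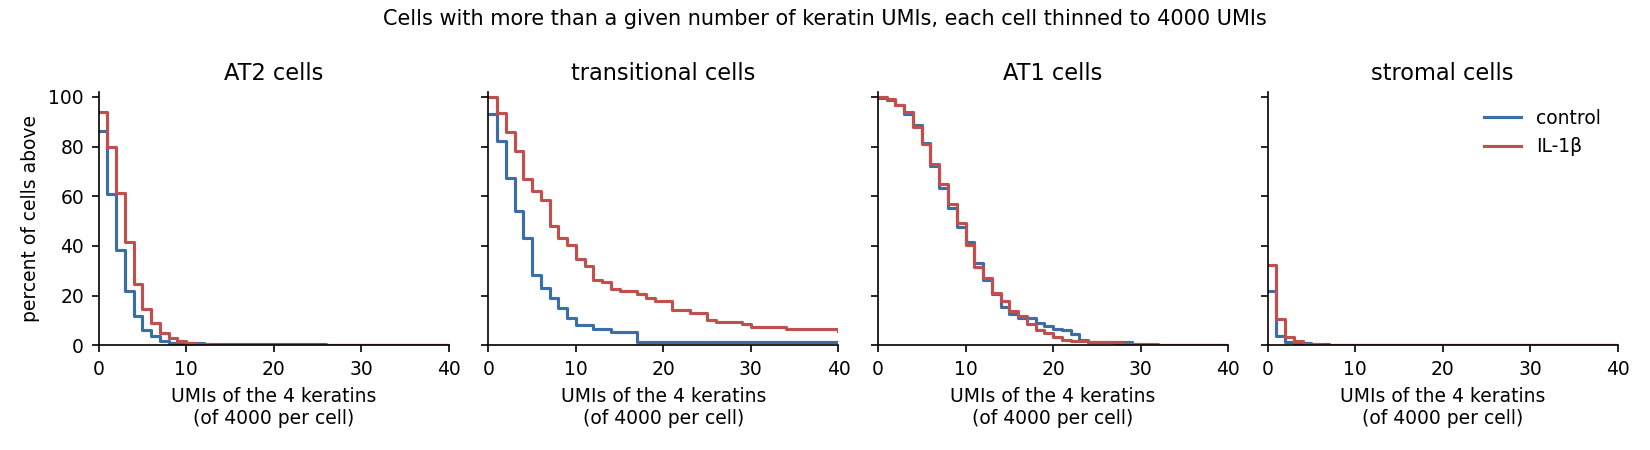
Percent of cells (vertical axis) with more than the given number of UMIs of the 4 keratins together (horizontal axis), each cell thinned to 4000 UMIs, for AT2, transitional, AT1 and stromal cells of the control (blue) and IL-1β (red) libraries. The transitional curves fall early and run out in a tail, with single cells at 93 and 128 keratin UMIs beyond the plotted range. In the control library only 1.35% of transitional cells lie above 17 keratin UMIs. The AT1 curves of both libraries lie close together around a median of 9.

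Counts per cell were also taken after each cell was thinned to 4000 UMIs. The median cell had 2 keratin UMIs in control AT2, 4 in control transitional and 9 in control AT1 cells, and 3, 7 and 9 in the IL-1β library. The 10% of cells with most keratin held 43.9% of keratin UMIs in control transitional and 44.9% in IL-1β transitional cells. The same shares were 22.7% and 21% in AT1 cells and 30.1% and 24% in AT2 cells. The highest single cells had 93 and 128 keratin UMIs of 4000 in the control and IL-1β transitional classes. Only 1.35% of control transitional cells lay above 17 keratin UMIs, so the control share rests in large part on the cell with 93. Such shares also rise from counting error alone where cells have few keratin UMIs, and this was not corrected for. All 4 keratins were detected together in 3.12% of control AT2 cells (exact binomial interval 1.94 to 4.72), 16.2% of control transitional (8.67 to 26.6) and 45% of control AT1 cells (38.4 to 51.8). The IL-1β shares were 5.07% (3.73 to 6.70), 40.6% (31.1 to 50.5) and 49.6% (44.6 to 54.7).

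Detection of single keratins in thinned cells separated Krt7 from the rest. A Krt7 UMI was found in 26% of control AT2 and 97.3% of control AT1 cells, and in 21.4% of IL-1β AT2 and 87.6% of IL-1β AT1 cells. For Krt8 the shares were 60.7% and 78.8% in control AT2 and AT1 cells, and 72.7% and 92.9% in the IL-1β library. Krt18 was found in 50% and 76.1% of control AT2 and AT1 cells, and in 70% and 90.9% with IL-1β. Krt19 was found in 20.9% and 66.2% of these control cells, and in 29.3% and 65.6% with IL-1β. Thus Krt7 had the widest gap between AT2 and AT1 cells in both libraries. Before thinning, Krt8 was found in 89.2% of control and 94.4% of IL-1β AT2 cells and in 24.6% and 40.4% of stromal cells. Stromal cells, which should lack epithelial keratins, gave a Krt8 UMI in 8.70% (control) and 14.2% (IL-1β) of thinned cells, with median depths of 15735 and 14828 UMIs against 13661.5 and 12293.5 in AT2 cells.

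A ranking that used no class name was made as well. Epithelial cells of each library were sorted by the share of their UMIs from 10 AT2 markers and divided into 10 bins of equal size, from most (bin 1) to least (bin 10) AT2 marker RNA. In the control library the sum of the 4 keratins stayed between 597 and 816 CPM over bins 1 to 8, and was 2161 in bin 9 and 3339 in bin 10. With IL-1β it went from 882 in bin 1 to 1050 in bin 5, 1433 in bin 8, 2177 in bin 9 and 3409 in bin 10. The AT2 marker share ran from 24.3% to 0.319% of UMIs across the control cells and from 23.6% to 0.367% across the IL-1β cells. These markers are part of the UMI total, so the CPM of other genes rises in part as their share falls. Scaled without surfactant, mitochondrial and ribosomal genes, the sum went from 936 in bin 1 to 3971 in bin 10 in the control library. With IL-1β it went from 1288 to 4043.

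Along that order Krt8 was higher in the IL-1β library in all 10 bins, from 396 against 247 CPM in bin 1 to 1022 against 714 in bin 10. Krt7 was lower in the IL-1β library in bin 10, 736 (707 to 765) against 1266 (1209 to 1325), and in bin 9, 453 against 788. In bin 8 it was higher with IL-1β, 218 (202 to 236) against 165 (147 to 185). Ager differed beside Krt7 in bin 10, with 6532 CPM in the IL-1β library and 15058 in the control library. Equal bin numbers mean equal rank and not equal AT2 marker share, so the bins of the libraries are not matched cells. Bin 8 ran from 8.76% to 6.29% in the control library and from 5.92% to 3.94% in the IL-1β library. The bins also differ in class. Bin 8 held 9 AT1 and 5 transitional cells of 128 in the control library, and 45 AT1 and 22 transitional cells of 258 in the IL-1β library. Bin 10 held 113 AT1 and 15 transitional cells of 128 in the control library, and 182 AT1 and 37 transitional cells of 258 in the IL-1β library.

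**Figure D3:**
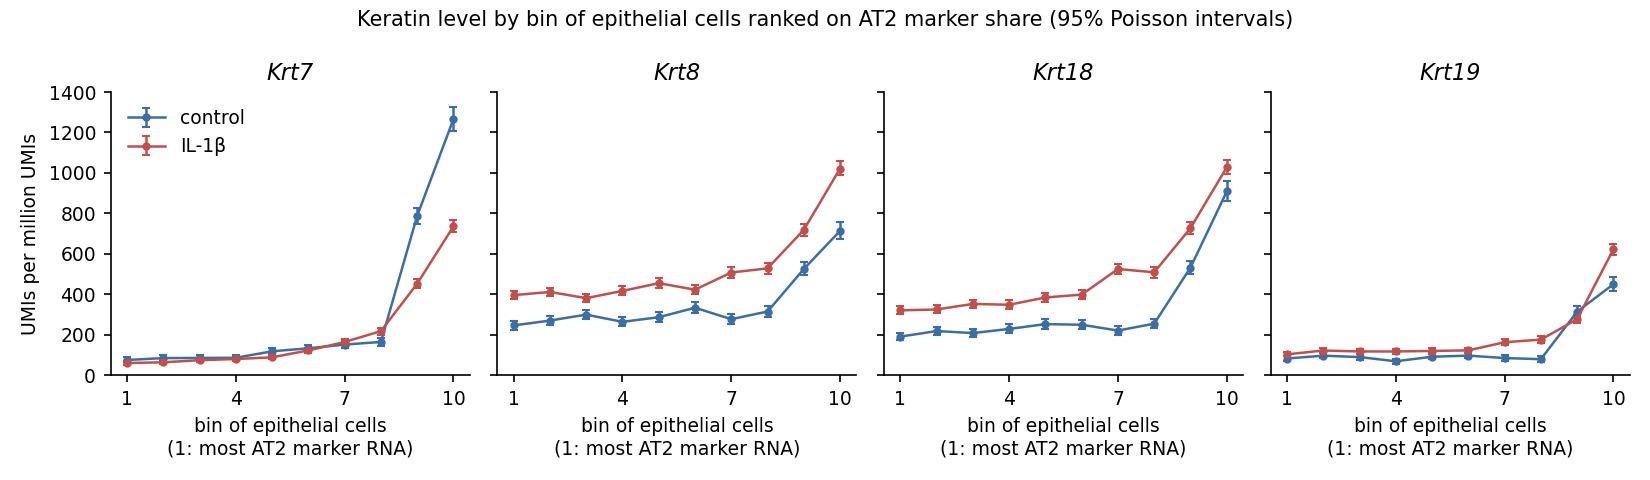
Level of each keratin in CPM (vertical axis) by bin of epithelial cells ranked from most (1) to least (10) AT2 marker RNA (horizontal axis), for the control (blue) and IL-1β (red) libraries with 95% Poisson intervals. Control Krt7 stays at 165 or below through bin 8 and reaches 1266 in bin 10, and the IL-1β curve for Krt8 lies above the control curve in every bin.

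The libraries were then compared within each class, which addresses how keratin levels differed after IL-1β treatment. The set of all epithelial cells rests on the clustering that split off stromal clusters, but on no class name among epithelial cells. Over this set Krt8 stood at 530.4 CPM with IL-1β against 344 in the control (ratio 1.54, interval 1.496 to 1.585). Krt18 stood at 496 against 312 (1.59, 1.54 to 1.64) and Krt19 at 199 against 139 (1.43, 1.366 to 1.497). Krt7 went the other way, 211 against 271 (0.777, 0.749 to 0.806). None of the 4 passed 2-fold in either direction, where 6.22% of 11051 genes were at least 2-fold higher and 3.63% at least 2-fold lower. The classes took unequal shares of these cells, with AT2 cells at 52.5% of control and 35.2% of IL-1β epithelial cells, unnamed clusters at 17.7% and 43.3%, and AT1 cells at 17.3% and 15.3%.

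In AT1 cells Krt8 was 1.43-fold (1.35 to 1.52) and Krt18 1.47-fold (1.39 to 1.55) the control level, and Krt19 was equal at 1.00 (0.930 to 1.08). Krt7 was 0.591 of the control level (0.563 to 0.620). The 4 together came to 2548 against 2516 CPM (1.01, 0.985 to 1.04), so the AT1 sums differed by less than the counting error while their makeup differed. Ager was also lower in the IL-1β AT1 class, 7063 against 13309 CPM, and Cldn4 was higher, 275 against 37.2, and their part in the keratin differences was not tested. The AT1 cells of the libraries come from separate clusterings, and when the libraries were clustered together 260 control but 6 IL-1β cells were named AT1. None of the 4 passed 2-fold, where 4.16% of 7762 genes were at least 2-fold higher and 2.81% lower.

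In AT2 cells Krt8 was 1.43-fold (1.357 to 1.501), Krt18 1.586-fold (1.5 to 1.677) and Krt19 1.31-fold (1.19 to 1.44) the control level. Krt7 was 0.616 of it (0.555 to 0.682), but its direction was not stable: with the unnamed clusters put in their best-scoring class the log2 ratio was 0.09 in place of -0.70. No keratin passed 2-fold, where 5.29% of 9199 genes were at least 2-fold higher and 3.01% lower. A cluster of 97 control AT2 cells, led by Crym, held Krt7 at 256 CPM and Ager at 2827, while the largest control AT2 cluster, of 307 cells, held Krt7 at 56.3.

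In transitional cells 3 of the 4 were at least 2-fold higher with IL-1β, where 7.49% of 3311 genes were and 3.99% were at least 2-fold lower. Krt19 was 3.83-fold (3.35 to 4.38), Krt8 2.28-fold (2.09 to 2.49), Krt7 2.25-fold (1.96 to 2.58) and Krt18 1.40-fold (1.29 to 1.52) the control level. These ratios rest on the 74 control cells described above, of which 50 were near AT2 cells in Sftpc. When the libraries were clustered together, 17 control and 674 IL-1β cells were named transitional and all 4 keratins were lower with IL-1β, with log2 ratios of -0.42 (Krt7), -0.99 (Krt8), -1.78 (Krt18) and -0.34 (Krt19). The direction between libraries in transitional cells thus depended on which cells took the name.

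**Figure D4:**
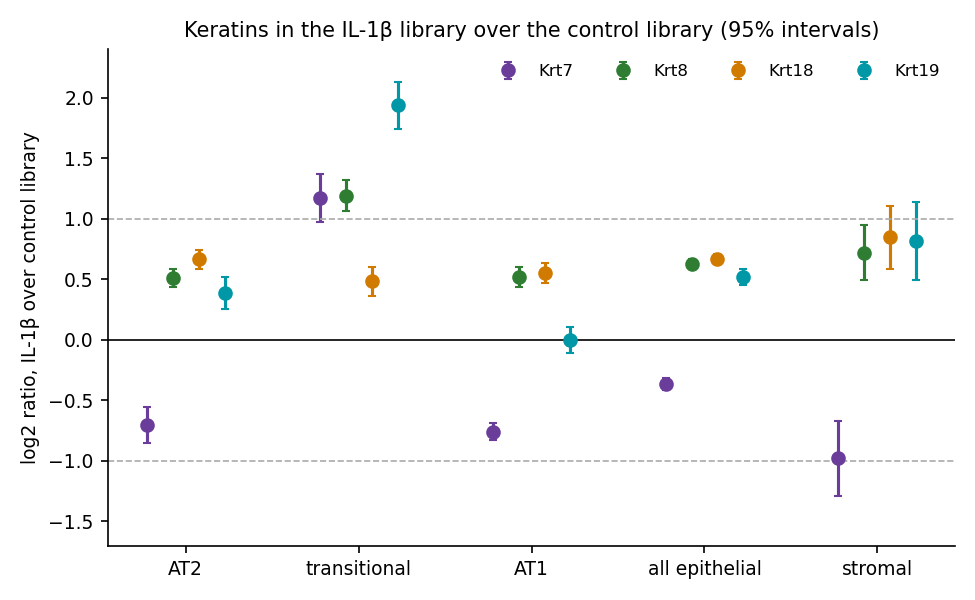
Log2 ratio of each keratin in the IL-1β library over the control library (vertical axis) by cell class, with 95% intervals; the solid line marks no difference and the dashed lines 2-fold. Krt7 lies below 0 in AT2, AT1, all epithelial and stromal cells and at 1.17 in transitional cells, while Krt8 lies above 0 in all of them.

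Of the unnamed IL-1β clusters, those of 281 and 468 cells lay between the AT2 and transitional classes in Krt8 and Krt7. A cluster of 281 cells led by BC030867, AU021092 and Tmem213, with Sprr1a and Areg among its top genes, had Krt8 at 653 CPM (interval 625 to 683), and a cluster of 468 cells led by Slc26a4 and Cxcl10 had Krt8 at 585. Their Krt7 levels were 181 and 177, above the 50.3 to 59.4 of the 3 IL-1β clusters named AT2. A cluster of 326 cells led by Meg3, Arg1 and Fgl1 had Krt8 at 345 and Krt7 at 43.6, within or below the range of the AT2 clusters. Among control clusters, the unnamed group of 143 cells led by Cxcl5 had Krt8 at 366, the unnamed group of 84 cells led by Scgb1a1 had Krt8 at 201 and Krt7 at 105, and the cycling cells had Krt8 at 385. The unnamed IL-1β cluster of 41 cells led by Ccl20 had Krt8 at 346 and Krt7 at 139.7, and the airway cells had Krt8 at 386 and Krt7 at 160.1. The airway cells, a name taken from airway secretory markers, also held Sftpc at 58571 CPM, near the 58218 of all IL-1β epithelial cells.

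**Figure D5:**
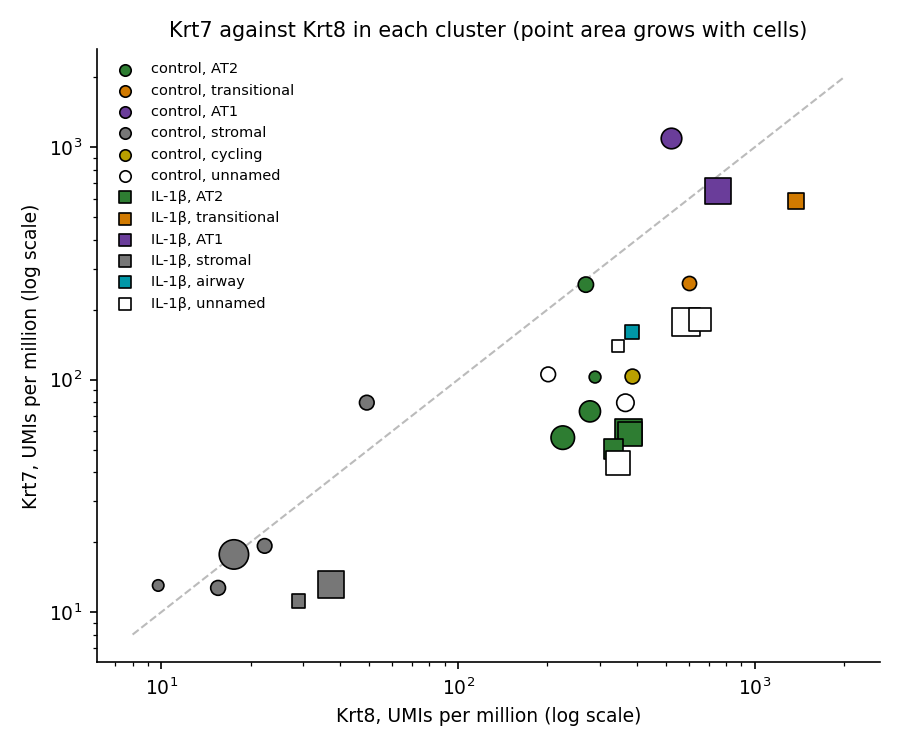
Krt7 (vertical axis) against Krt8 (horizontal axis), both in CPM on log scales, in every cluster of the control (circles) and IL-1β (squares) libraries, coloured by class with unnamed clusters in white; the dashed line marks equal levels. Control AT1 cells lie above the line at 1096 against 524, and the unnamed IL-1β clusters of 468 and 281 cells lie between the IL-1β AT2 and transitional points. Point area grows with the number of cells.

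Stromal cells gave few keratin UMIs. Krt8 stood at 22.0 CPM in control and 36.1 in IL-1β stromal cells, which was 6.37% (5.65 to 7.16) and 6.81% (6.10 to 7.58) of the epithelial level. For Sftpc, which stromal cells do not make, the same percentages were 4.46 and 7.43. The stromal levels of the other 3 keratins were between 5.23% and 9.70% of the epithelial ones. All 4 in control and Krt19 with IL-1β lay above Sftpc with intervals clear of it. Krt7 (6.09%) and Krt18 (5.93%) with IL-1β lay below Sftpc, also with intervals clear of it. The percentages of Sftpb, Epcam, Cdh1 and Cldn18 ran from 4.38 to 6.72 in control and from 5.21 to 7.60 with IL-1β. The highest were Krt7 in control (9.32%, interval 8.33 to 10.4) and Krt19 with IL-1β (9.70%, 8.33 to 11.2). Whether free RNA or mixed droplets gave these UMIs was not tested. The highest stromal Krt7 level, 79.6 CPM, was in a control cluster of 84 cells that also held Ager at 1067. Between the libraries no keratin passed 2-fold in stromal cells, where 3.63% of 10070 genes were at least 2-fold higher and 10.3% lower.

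Most other keratins were nearly absent. Of 47 further genes named Krt and a number, 25 had no UMI in either library, 18 had under 10, and 2 had at least 100 in all cells kept. Krt23, a type I keratin, had 2136 UMIs in all and stood at 64.2 CPM in control AT2 and 9.37 in control AT1 cells. That ratio was 0.146 (0.0975 to 0.210), in the reverse direction to the 4 members in this comparison. In the IL-1β library Krt23 stood at 29.8 in AT2 and 36.7 in AT1 cells (1.23, 1.03 to 1.47). In transitional cells it stood at 83.8 (control) and 49.7 (IL-1β), above AT2 cells of the same library as the 4 members were. Krt10, a type I keratin best known from stratified epidermis, had 1109 UMIs and differed little between classes, 19.95 in control AT2, 21.5 in control AT1 and 19.0 in control stromal cells. The next by UMIs were Krt15 with 45, Krt25 with 11, and Krt24 and Krt80 with 6 each.

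Desmosome and linker genes, which anchor keratin filaments, were compared as a fixed list of 16 with 15 in the table. Of the 11 with enough UMIs in IL-1β AT1 and AT2 cells, 4 were at least 2-fold higher in AT1 cells and 0 lower, with a median log2 ratio of 0.69 against 0.367 over all genes, of which 14% were at least 2-fold higher. Jup (plakoglobin) stood at 210.2 CPM in AT1 and 130.3 in AT2 cells (1.61), Plec (plectin) at 113 and 51.1 (2.20), Pkp2 (plakophilin 2) at 136 and 25.8 (5.26) and Pkp4 at 65.2 and 34.1 (1.91). In the control library 4 of 9 were at least 2-fold higher in AT1 cells, against 18.3% of all genes, Pkp2 by 4.80-fold (4.06 to 5.69). In IL-1β transitional cells 4 of 10 were at least 2-fold higher than in AT2 cells, against 8.62% of all genes, while Jup was equal at 1.01 (0.846 to 1.19). In control transitional cells 1 of 8 was, against 4.03%. Over all epithelial cells none of 11 passed 2-fold between the libraries, against 6.22% of all genes higher and 3.63% lower.

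Junction genes of epithelia gave more calls. Of 14 compared, 8 were at least 2-fold higher in control AT1 than AT2 cells, 7 in the IL-1β library, and 0 were lower in either, with median log2 ratios of 1.47 and 1.11 against 0.41 and 0.367 over all genes, of which 18.3% and 14% were at least 2-fold higher. Among the 4 with most UMIs, Cldn18 (claudin 18) was 5.38-fold higher in control AT1 cells and Ctnnb1 (β-catenin), Cldn3 and Cdh1 (E-cadherin) did not pass 2-fold, at 1.18, 0.717 and 1.68. In IL-1β transitional cells 6 of 14 were at least 2-fold higher than in AT2 cells, against 8.62% of all genes, Cldn18 by 2.86-fold and Cdh1 by 2.16-fold. Cldn4, counted among the 6, was also a marker used to name the transitional class, so its call is not independent of the naming. Between the libraries, over all epithelial cells, 2 of 14 were at least 2-fold higher with IL-1β, against 6.22% of all genes: Cldn4 at 7.37-fold (6.496 to 8.402) and Tjp3 at 2.17-fold (1.975 to 2.395).

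Regulators and other filament genes gave fewer calls. Among 14 regulators known to act on epithelial or keratin genes, 12 were compared over all epithelial cells and none passed 2-fold between the libraries, against 6.22% of all genes higher and 3.63% lower, with Jun at 327 against 209.5 CPM (1.56), Ehf at 91.3 against 52.7 (1.73), Elf3 at 66.7 against 33.5 (1.99, interval 1.82 to 2.18) and Klf5 at 51.2 against 43.8 (1.17). In AT1 cells 2 of 9 compared were at least 2-fold higher with IL-1β and 0 lower, against 4.16% and 2.81% of all genes. Ehf, an ETS factor of epithelia, was 5.66-fold (3.92 to 8.43) and Elf3 2.70-fold (2.13 to 3.45) the control level. Of 9 other intermediate filament genes, 3 were compared between control AT1 and AT2 cells and 1 was at least 2-fold higher, against 18.3% of all genes. Lmna (lamin A/C) stood at 188 CPM in control AT1 and 65.2 in control AT2 cells (2.88), and Vim (vimentin) at 21.9 and 15.9 (1.38). In the IL-1β library 4 were compared between AT1 and AT2 cells, with 0 at least 2-fold higher and 0 lower, against 14% and 4.7% of all genes.

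Over 25 clusters of at least 30 cells from both libraries, Krt8 and Krt18 had the most similar profiles of the members, with a Pearson r of 0.990 on log2(CPM + 1). Krt19 followed with 0.963 to Krt8 and 0.968 to Krt18, and Krt7 was least like them, at 0.821 and 0.834. Among 9005 genes, those most like Krt8 were St14, Spint1, Cldn7, Lsr and Mfsd6, with r from 0.968 to 0.975, and those most like Krt18 were Spint1, Cystm1, Erbb3, St14 and Rab25. Among the genes most like Krt7 were Fam174b, Gprc5a, Ocln and Tspan15, with r from 0.951 to 0.963. Among those most like Krt19 were Sfn, Zbtb18, Spint1 and Ctsh, with r from 0.937 to 0.962. The clusters share 2 libraries and the contrast of epithelial with stromal cells, so these values are descriptions.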

How the data were processed

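Deposited single-cell count matrices were used, 1 per condition. Per the labels, Cell Ranger and Scanpy 1.3.6 were used, and the methods gave the GRCm38 genome. The deposited counts are whole UMI counts per gene and barcode, with no normalization. Krt7, Krt8, Krt18, Krt19 and all gene lists were chosen with earlier results of these data known. A barcode needed over 500 but under 7000 detected genes, and over 2000 UMIs, which left 2083 control and 3059 IL-1β cells. The doublet caller marked 3 of 5142 cells (0.0583%), too few to have worked, so doublets remain. Each library was clustered separately (Scanpy 1.11.5, Leiden resolution 1.0), without keratins and the partner lists, because nearly all clusters of a joint clustering held cells of 1 library. Stromal clusters were split off first. A cluster took the class with the highest mean marker level relative to the marker's maximum over clusters. It stayed unnamed with more markers of another class among its top 10 genes, and this rule was set after the clusters were seen. Counts were summed per class and library, and a gene with at least 100 UMIs in a comparison was counted at a ratio of at least 2 or at most 0.5. Intervals are exact Poisson or binomial at 95%. They cover only UMI counting error or, for shares of cells, the sampling of cells within 1 library. No test was possible with 1 library per condition. The ratios were first tested on simulated counts. For each list up to 4 genes with most UMIs were named, plus genes past 2-fold chosen after their values were seen. Each keratin was paired with its 5 most similar genes, of which some are not reported here. The alternatives were other clustering, naming, doublet, scaling and thinning choices.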

Additional observations from a re-analysis of the deposited data

Results flagged for a closer look

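With the classes named here, Krt7 differed between libraries in opposite directions in different classes. This was noted because the counting intervals lay on opposite sides of 1. Its ratio of IL-1β to control was 2.25 in transitional cells, 0.616 in AT2 cells, 0.591 in AT1 cells and 0.508 in stromal cells. The ratio of Krt19 in AT1 over transitional cells was 1.51 in the control library and 0.396 in the IL-1β library. None of these differences between classes or libraries was tested, since each condition was 1 library. The transitional values rest on 74 control and 106 IL-1β cells, and the source of the stromal keratin UMIs was not tested. Of the 342 Krt7 UMIs in control stromal cells, 139 came from 1 cluster of 84 cells that also held Ager at 1067 CPM. The direction of Krt7 in AT1 cells was the same under all 12 alternatives that gave a value, with log2 ratios from -0.87 to -0.58. Its direction reversed under 3 of 11 alternatives in transitional cells (-0.42 to 1.64) and under 4 of 13 in AT2 cells (-0.80 to 0.80). The opposite directions of Krt7 in these classes were thus not stable. The control order of Krt19 reversed under 2 of 11 alternatives.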

How the results depend on the processing

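In the comparison of transitional with AT2 cells each keratin kept its direction under all 11 control and 12 IL-1β alternatives that gave a value, and so did each keratin between libraries over all epithelial cells under all 13. Sizes moved more: transitional over AT2 cells ran from 1.18 to 3.17 (Krt7) in control, and from 2.31 to 3.41 (Krt7) and 2.02 to 3.27 (Krt19) with IL-1β. Values below are log2 ratios unless called counts, and the cause of a change was not tested. For Krt7 between libraries in AT2 cells, resolution 0.5 gave 0.80, resolution 2.0 gave 0.14, Louvain clustering 0.12, and keeping clusters with markers of another class, an alternative chosen after seeing the data, 0.09. For IL-1β against control in transitional cells, all highly variable genes gave -0.37 (Krt7) and -0.10 (Krt18), another random seed -0.25 and -0.26, and joint clustering -0.42 (Krt7), -0.99 (Krt8), -1.78 (Krt18), -0.34 (Krt19) and -1.13 (sum). For AT1 against transitional cells in control, every barcode kept gave 0.04 (Krt8), 0.19 (Krt18) and -0.01 (Krt19), the mean over cells 0.09 (Krt8), joint clustering -0.64 (Krt19) and -1.25 (sum), and all highly variable genes and another seed 0.00 (sum). In the IL-1β library, no doublets removed gave -0.06 (Krt7). Counts of keratins past 2-fold moved in these comparisons. Control transitional above AT2 cells gave 3 with the mean over cells, and control AT1 above AT2 cells gave 3 under 4 alternatives. IL-1β AT1 below transitional cells gave 2 with no doublets removed and 0 with 5% of cells removed, resolution 2.0, all highly variable genes, another seed or the mean over cells. Control AT1 against transitional cells gave 0 higher and 2 lower under joint clustering. Transitional cells higher with IL-1β gave 4 with every barcode kept, 2 at resolution 2.0, 1 with 5% of cells removed or all highly variable genes, 0 with another seed, and 0 with 1 lower under joint clustering. IL-1β AT1 above AT2 cells gave 2 at resolution 0.5, with Louvain clustering or with the other clusters kept, and 3 under 5 more alternatives. AT2 cells higher with IL-1β gave 3 at resolution 0.5 and 1 with Louvain clustering. Stromal cells gave 1 lower with no doublets removed, joint clustering or scaling without surfactant, mitochondrial and ribosomal genes, 2 higher with 5% of cells removed and 3 with the mean over cells. Resolution 0.5 gave no transitional class, joint clustering too few IL-1β AT1 cells, and a margin of 0.1 between names no control transitional class. No paired analysis was possible because each condition was 1 library.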
